A study of Mus musculus with 4 samples.

Results

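Endothelial cells of the fetal mouse ovary were examined in a single-cell RNA sequencing study of XX gonads. A cell was counted as endothelial when at least 4 of the 6 genes Pecam1, Cdh5, Kdr, Esam, Egfl7 and Cldn5 had a transcript in it. It could hold at most 1 of the 6 germ cell genes Dazl, Ddx4, Dnd1, Mael, Dppa5a and Mov10l1, and at most 1 of Fst, Irx3 and Upk3b, which mark supporting and surface cells. This gave 475 of 19387 cells. The gonads came from C57BL/6 embryos at 4 embryonic stages, each a day apart from E11.5 to E14.5, with no treatment or genetic change named. They were dissociated with the enzyme mix TrypLE and loaded on the 10x Chromium droplet system with the 3′ kit, version 2. Each stage was 1 library, so stage and library cannot be told apart, and how many embryos went into a library is not given in the sources used here. The design text names cellular heterogeneity around the onset of meiosis as the subject of the study.

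Endothelial cells line blood vessels. They are held together by the adherens junction protein VE-cadherin (Cdh5) and the tight junction protein claudin 5 (Cldn5), and respond to VEGF through the receptors Flt1, Kdr and Flt4. Arteries and veins are separated by Notch signalling on the arterial side and by the nuclear receptor Nr2f2 on the venous side. In the gonad, vessels form next to the mesonephros during the stages studied, and the XX gonad lacks the large coelomic artery that forms in the XY gonad.

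The table recorded unique molecular identifiers (UMIs), each standing for 1 captured transcript, as scaled log values from which whole UMI counts were recovered. The libraries held 4916, 4842, 4842 and 4787 cells in stage order. Median depth was 17017, 14927, 10671 and 11461 UMIs in endothelial cells, against 13808, 12127, 10462 and 9851 in the other somatic cells, which were all cells with at most 1 germ cell gene outside the endothelial and erythroid gates (13774 cells). The endothelial cells of a library were summed to between 581599 and 3186966 UMIs and expressed as CPM, the UMIs of a gene scaled to a common library total. Intervals in brackets are exact 95% intervals, which cover counting error only and neither the spread between embryos nor that between libraries. The study has no replicates, so no test was made. Sequencing barcodes shared by libraries numbered 175, and 0 were shared between endothelial cells of 2 libraries.

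Endothelial cells were a small and, at the later stages, smaller share of each library. They numbered 159, 180, 95 and 41 in stage order. These were 3.23% [2.76 to 3.77], 3.72% [3.20 to 4.29], 1.96% [1.59 to 2.39] and 0.856% [0.615 to 1.16] of all cells. Of the somatic cells they were 3.58%, 4.47%, 2.45% and 2.15%, so the low share of all cells at E14.5 stood beside a smaller somatic fraction. The share after dissociation depends on how many cells of each kind were released, which was not tested.

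**Figure D1:**
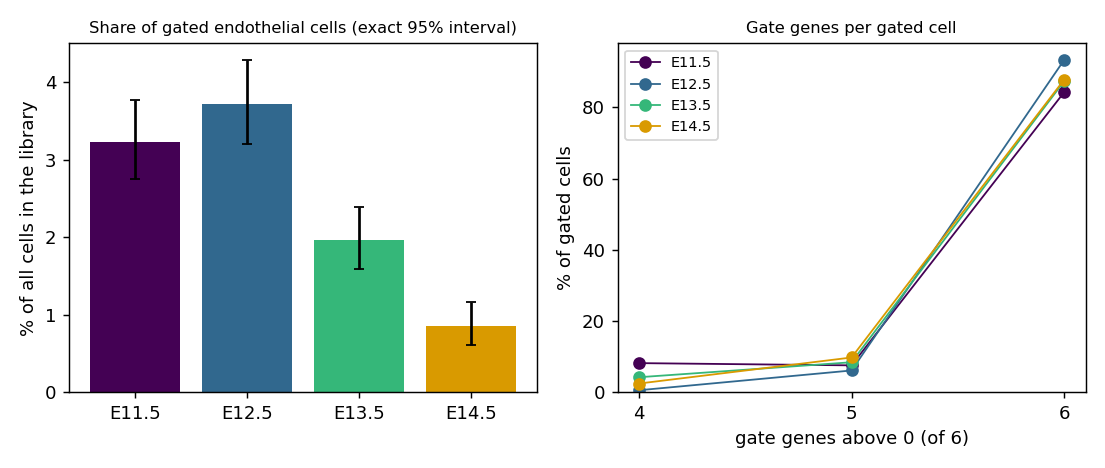
Left, percent of all cells in the endothelial gate by stage with exact 95% binomial intervals; right, percent of the endothelial cells of each stage (line and color) by how many of the 6 gate genes they held. The share lay at 3.23% and 3.72% at E11.5 and E12.5 and at 0.856% at E14.5, and 421 of the 475 cells held all 6 genes.

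Most of the chosen cells held every gate gene. These values are the ones the rule used. All 6 genes were found in 421 of the 475 cells (88.6%), 5 in 35 and 4 in 19, while 71 cells stopped just outside with 3. Across that boundary Cdh5 stood at 5.46 CPM in cells with 3 genes, 42.7 in cells with 4, 278 in cells with 5 and 491 in cells with 6. For Cldn5 the same groups gave 59.3, 586, 788 and 834 CPM. Another 40 cells with at least 4 endothelial genes were left out because they held 2 or more germ cell genes, and 67 because of Fst, Irx3 and Upk3b.

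Endothelial genes outside the gate were read next. Of a list of 28 further endothelial genes, 23 were abundant enough to be compared with the other somatic cells, and 23 were higher. A gene was called higher or lower when it had at least 50 UMIs, a mean of at least 50 CPM in the higher class and a ratio of at least 4 in each of the 4 libraries. By this rule 181 of 3295 genes were higher (5.49%) and 92 lower (2.79%). The median log2 ratio of the 23 genes was 6.30, against -0.01 over all 3295. The 28 genes summed to between 5272 and 6314 CPM in endothelial cells and between 91.9 and 185 in other somatic cells. Most of those compared thus met the CPM minimum only through the endothelial class, which made a higher call likely beforehand. The cells were also chosen by genes that move with these, so the contrast with other somatic cells is a description and supports nothing about the choice.

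Receptors and surface proteins were far above the other somatic cells in every library. Tie1, an angiopoietin co-receptor, measured 122, 151, 152 and 143 CPM in endothelial cells from E11.5 to E14.5. In other somatic cells it lay between 0.736 and 1.45 CPM, giving a mean ratio of 128. The angiopoietin receptor Tek measured 56.5, 57.4, 60.3 and 73.9 CPM, 124-fold above the other somatic cells. Icam2, an adhesion molecule of endothelium, lay between 260 and 317 CPM, 161-fold above. All 3 genes were among the 181 called higher of 3295 compared. The sialomucin Cd34 and Emcn were 113-fold and 80.8-fold higher. The lectin-like receptor Cd93 lay at 219, 328, 383 and 356 CPM and was 134-fold higher.

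These ratios depended on which cells stood as the comparison. Without 172 other somatic cells that held 3 or more endothelial genes, an alternative chosen after seeing the data, the 20 genes with the largest ratios moved from between 114 and 249-fold to between 215 and 958-fold. All 20 moved by more than 1.5 times. Genes named elsewhere in the text moved as well, among them Erg from 86.5 to 313-fold, Flt4 from 98.5 to 336, Dll4 from 170 to 551 and Col15a1 from 90.4 to 182.

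**Figure D2:**
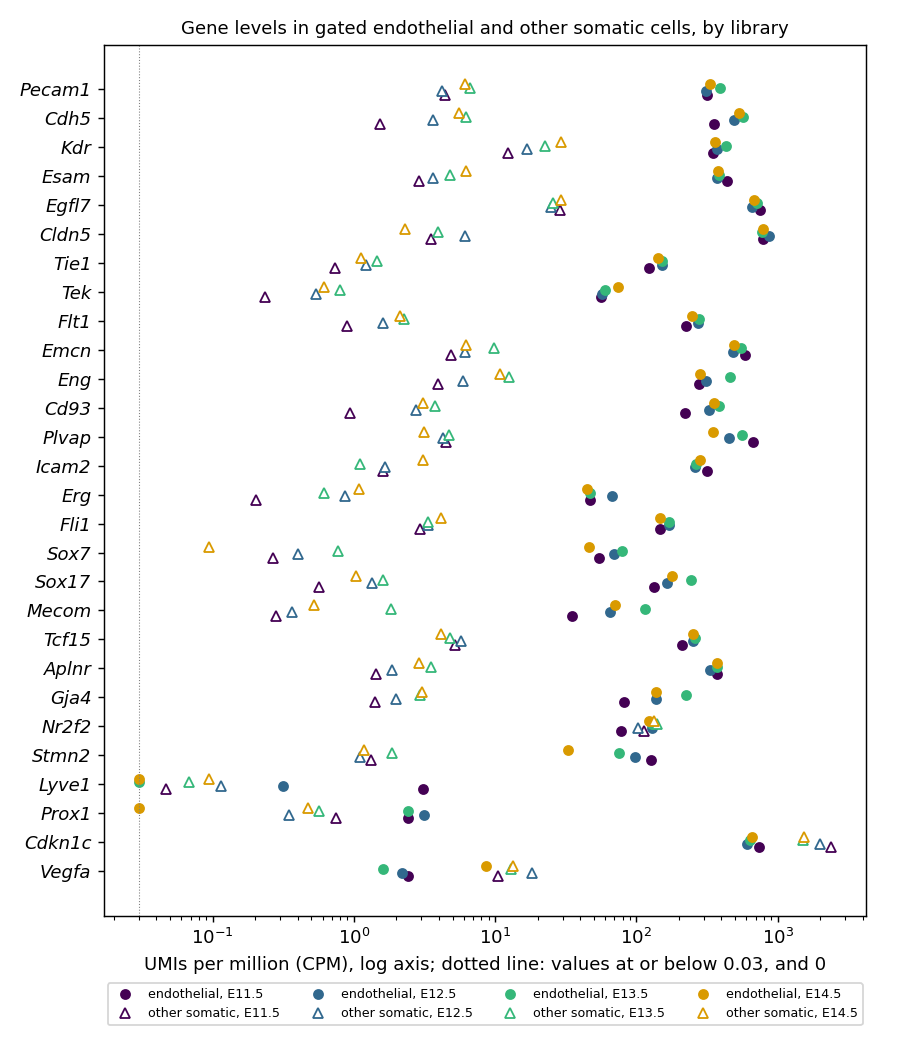
CPM on a log axis for named endothelial genes, with filled circles for the 4 endothelial sums and triangles for the other somatic cells of the same libraries. Tie1 lies between 122 and 152 CPM in endothelial cells and at or below 1.45 CPM in other somatic cells, and Nr2f2 overlaps between the classes.

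The VEGF receptors were high and the VEGF ligands were not. Flt1 measured 224, 271, 280 and 249 CPM, 157-fold above other somatic cells, and the co-receptor Nrp1 measured 277, 321, 360 and 308 CPM, 12.1-fold above. Of 5 receptor genes, 4 were compared and 4 called higher, and Flt4 at 46.8, 52.1, 45.8 and 25.8 CPM missed the CPM minimum at a ratio of 98.5. None of the 5 ligand genes reached the minimums. Summed, the ligands lay between 26.4 and 35.4 CPM in endothelial cells and between 44.6 and 57.1 in other somatic cells. Vegfa, the main ligand of Kdr, measured 1.61 to 8.60 CPM in endothelial cells and 10.4 to 18.3 CPM in the other somatic cells, lower in all 4 libraries. Vegfc, a ligand of Flt4, went the other way, at 5.16 to 22.5 CPM against 0.424 to 1.16.

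The apelin receptor was prominent while its ligand was sparse. Aplnr measured 372, 335, 372 and 375 CPM, a narrow range, and was 159-fold higher than in other somatic cells. Apln, the ligand, measured 13.1, 14.1, 43.4 and 27.5 CPM. The second ligand, Apela, had 0 UMIs in the endothelial cells of all 4 libraries.

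Transcription factors of the endothelial lineage followed the same pattern. Of 27 listed, 16 were compared and 13 were higher, with a median log2 ratio of 4.74. Over all 3295 genes compared 5.49% were higher and the median was -0.01. Factors such as Fli1, Erg, Sox17, Sox7 and Lmo2 met the CPM minimum only through the endothelial class, which made a higher call likely beforehand. The ETS factors Fli1 and Erg were 46.4-fold and 86.5-fold higher. Sox17 measured 133, 165, 242 and 179 CPM and was 166-fold higher, and the related Sox7 was 206-fold higher. Mef2c lay between 359 and 510 CPM, and Lmo2, a partner of Tal1, between 253 and 434. Nr2f2, a factor of venous endothelium, measured 78.2, 130, 129 and 122 CPM in endothelial cells and 113, 103, 139 and 132 CPM in other somatic cells. Its values overlapped between the classes, so Nr2f2 did not set these endothelial cells apart.

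Notch components were unevenly present. Of 13 genes, 3 were compared and 2 called higher. The receptor Notch1 measured 70.3, 81.9, 110 and 98.0 CPM, 24.0-fold above other somatic cells, and the Notch target Nrarp measured 84.0, 146, 221 and 73.9 CPM, 119-fold above. The ligand Dll4 at 21.0, 28.6, 41.8 and 46.4 CPM fell short of the CPM minimum, with a ratio of 170. Notch2 lay at 0.804 to 6.88 CPM against 26.1 to 35 CPM, and did not reach the minimums.

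Of 19 arterial genes 5 were compared and 4 were higher. Of 7 venous genes 6 were compared and 4 were higher, where the share over all 3295 genes was 5.49%. Summed, the arterial genes lay between 518 and 1078 CPM in endothelial cells and between 68.5 and 112 in other somatic cells. The venous genes lay between 1534 and 1870 CPM against 136 to 186. Most of those compared thus met the CPM minimum through the endothelial class, which made a higher call likely beforehand.

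Receptors and secreted ligands toward neighbouring cells were also read. In the BMP and ALK1 list 2 of 9 genes compared were higher, the receptor Acvrl1 (8.85-fold) and its co-receptor Eng (43.6-fold), while the target Id1 lay at a ratio of 0.946. Among semaphorin and guidance genes 4 of 8 were higher, Nrp1, Nrp2, Robo4 and Plxnd1, the last a semaphorin receptor at 228 to 273 CPM. Of 25 secreted factors, 8 were compared, and 1, Tgfb1, was higher, at 243, 201, 207 and 182 CPM against 10.7 to 16.9. Pdgfb, which recruits mural cells, lay at 30.4 to 55.5 CPM against 0.642 to 1.22. Igf2 measured 200, 1087, 252 and 291 CPM, with the high value at E12.5, and the other somatic cells were also high at that stage (110, 367, 134 and 147 CPM).

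Vessel wall components were mostly higher. Of 14 basement membrane genes, 12 were compared, 6 were called higher and 12 lay above the other somatic cells in all 4 libraries, with a median log2 ratio of 2.70. Over all 3295 genes compared, 1179 lay above in all 4 libraries. The type IV collagen genes Col4a1 and Col4a2 were 10.4-fold and 11-fold higher, and Col15a1 was 90.4-fold higher, at 106, 91.9, 130 and 131 CPM. Of 8 genes of caveolae and related membrane structures, 7 were compared and 4 were higher, including Cav1 (13.4-fold) and Plvap (119-fold), which forms the diaphragms of fenestrae. Among 15 junction genes, 11 were compared, 4 were higher and 1, the epithelial tight junction gene Cgn, was lower (8.95, 1.26, 3.22 and 12 against 62.7 to 82.6 CPM).

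Several defining markers of lymphatic and brain endothelium were near or at 0, while other genes of both lists were not. Prox1, the master regulator of lymphatic fate, measured 2.41, 3.14, 2.41 and 0 CPM, and Lyve1 measured 3.10, 0.314, 0 and 0 CPM. Of the 7 lymphatic genes 1 was compared, Pdpn, and it was lower (1.61 to 5.17 CPM against 42.4 to 72.4). Ccl21a had 0 UMIs, and the brain endothelial lipid transporter Mfsd2a had 0 UMIs in all 4 libraries. Summed, the lymphatic genes lay at 86.1, 81.9, 67.5 and 48.1 CPM, most of it from Flt4 and from Mmrn1 (17.2 to 28.2 CPM). Among the 8 brain barrier genes in the table, 3 were compared and 0 were higher, and their sum was 157, 92.6, 98.9 and 70.5 CPM, of which Slc2a1 gave 114, 62.8, 58.7 and 34.4. Hemogenic genes gave 0 higher of 2 compared. Runx1, which marks hemogenic endothelium, measured 3.79, 4.08, 4.02 and 10.3 CPM, below the 52.9 to 66.5 CPM of other somatic cells.

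Genes outside the usual endothelial set also separated the classes. Stmn2, best known as a neuronal microtubule regulator, measured 128, 97.9, 74.8 and 32.7 CPM in endothelial cells and was 55.6-fold higher. It was found in 60, 61, 18 and 9 cells in stage order. The neural crest gene Sox10 had 0 UMIs in all 4 libraries of endothelial cells, and the neuronal tubulin gene Tubb3 lay at 0.314 to 1.72 CPM.

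Hox genes, which record position along the body axis, differed by cluster. The 5 Hoxb genes summed to 100, 103, 145 and 122 CPM in endothelial cells and to between 17.2 and 20.2 CPM in other somatic cells. The 4 Hoxc genes summed to 20.7, 13.8, 17.7 and 30.9 CPM in endothelial cells and to between 114 and 142 CPM in other somatic cells. The sum of the 5 Hoxa genes lay above that of the other somatic cells in all 4 libraries, though Hoxa10 alone had a ratio of 0.956. The sum of the 3 Hoxd genes lay below (39.3, 75.3, 56.3 and 61.9 against 158 to 177 CPM). For single genes, lying on 1 side in every library was common. Of 3295 genes compared, 1179 lay above and 1142 below the other somatic cells in all 4 libraries. Of the 17 genes only 2 reached the minimums for the call, and 1, Hoxc8, was lower.

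Of the cell cycle lists, 0 of 15 S phase and 0 of 11 mitosis genes compared were called in either direction. More endothelial cells held several mitosis genes. With every cell thinned to 5000 UMIs, which left out 0 cells, at least 3 of 20 mitosis genes were found in 57.9% [49.8 to 65.6], 46.7% [39.2 to 54.2], 40.0% [30.1 to 50.6] and 41.5% [26.3 to 57.9] of endothelial cells. The other somatic cells gave 29.5%, 29.6%, 19.9% and 33.9%. Without thinning the endothelial shares were 74.8%, 64.4%, 45.3% and 46.3% and the others 44.2%, 37.9%, 27.5% and 42.2%. At E14.5 the share of the other somatic cells lay inside the endothelial interval. Cdkn1c, an inhibitor of cell cycle entry, was low in endothelial cells in all 4 libraries (733, 609, 636 and 660 CPM against 2407, 2009, 1524 and 1542 CPM).

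Genes of other gonadal cells were mostly low in the endothelial sums. Supporting cell genes (12) summed to 240, 243, 277 and 330 CPM against 1718 to 2054 in other somatic cells, and 6 of 10 compared were lower. Immune genes summed to between 22.5 and 36.1 CPM against 142 to 406, and germ cell genes to between 7.23 and 48.1 CPM against 11 to 61.1. The gate gene Irx3 stayed at 53.7 to 89.4 CPM, within the limit the rule allowed. Perivascular genes summed to 36.8, 12.2, 41.8 and 138 CPM. At E14.5 a single cell held 65.7% of the Acta2 UMIs and 61.5% of the Pdgfrb UMIs. A doublet caller marked 7, 3, 2 and 0 endothelial cells, which were kept.

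The endothelial cells were not uniform, and the first axis examined was arterial. The gap junction gene Gja4, expressed in arterial endothelium, had a UMI after thinning in 89 of the 475 cells (25, 33, 24 and 7 by stage). This was 18.7% of the endothelial cells (25.7% before thinning) and 1.06% of the other somatic cells, thinned alike. This split was chosen after values were seen, so it is described without a test. Median depth was 12792 UMIs in cells with Gja4 and 14891 in those without. Of 3155 genes abundant enough, 122 were at least 2-fold higher in cells with Gja4 and 30 at least 2-fold lower.

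Arterial genes were concentrated in the Gja4 cells. Hey1, Unc5b, Dll4 and Efnb2, read by library, were higher in each. The E14.5 values rest on 7 cells with Gja4 and on few UMIs, 6 against 4 for Hey1 and 4 against 7 for Efnb2. Hey1, a Notch target that was not called between the classes, measured 208, 233, 272 and 53.4 CPM in cells with Gja4 and 15.4, 14.4, 13.1 and 8.53 CPM in cells without. Over all cells this was 217 against 14.2 CPM, 15.3-fold. Unc5b, a netrin receptor of arterial and tip cells, was 10.7-fold higher (230 against 21.5 CPM), and Dll4 4.66-fold higher (85.5 against 18.4). Gja5, the connexin 40 gene, had 58 UMIs in these cells and 0 in the others. Sox17 was at 326 against 136 CPM and Efnb2, the arterial ephrin, at 109 against 35.7.

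Genes of other functions went with the arterial genes. Esm1, secreted by tip cells, was at 164 against 21.2 CPM (7.72-fold), the lipoprotein lipase anchor Gpihbp1 at 286 against 75.4, and Aqp1, a water channel, at 92.6 against 16.4. Cdkn1c, low in endothelial cells as a class, measured 1432, 1758, 1423 and 1476 CPM in Gja4 cells and 610, 408, 438 and 465 in the rest. Cdkn1c was thus higher in the Gja4 cells in each library.

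The 7 listed venous genes did not move together. Plvap, on the venous list as well as among the genes of caveolae and fenestrae, was higher in Gja4 cells (832 against 483 CPM), and Emcn stood at 588 against 520. Nr2f2 measured 43.5, 37.9, 24.0 and 80.0 CPM in Gja4 cells and 84.3, 146, 156 and 132 CPM in the rest. Aplnr measured 229, 149, 172 and 285 CPM against 398, 367, 423 and 396, and Nrp2 40.0 against 101 over all libraries. The ephrin receptor Ephb4 and Flt4 were near equal. At the level of cells, Gja4 and Nr2f2 were found together in 3.16% [1.78 to 5.16] of cells, where the product of their separate shares is 6.55%. For Gja4 and Unc5b the figures were 11.6% [8.84 to 14.8] and 3.75%. Sox17, also on the arterial list, was found with Nr2f2 in 18.1% [14.7 to 21.9] of cells, near the product of 17.7%, and with Aplnr in 36.8% [32.5 to 41.4], near 37.3%.

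**Figure D3:**
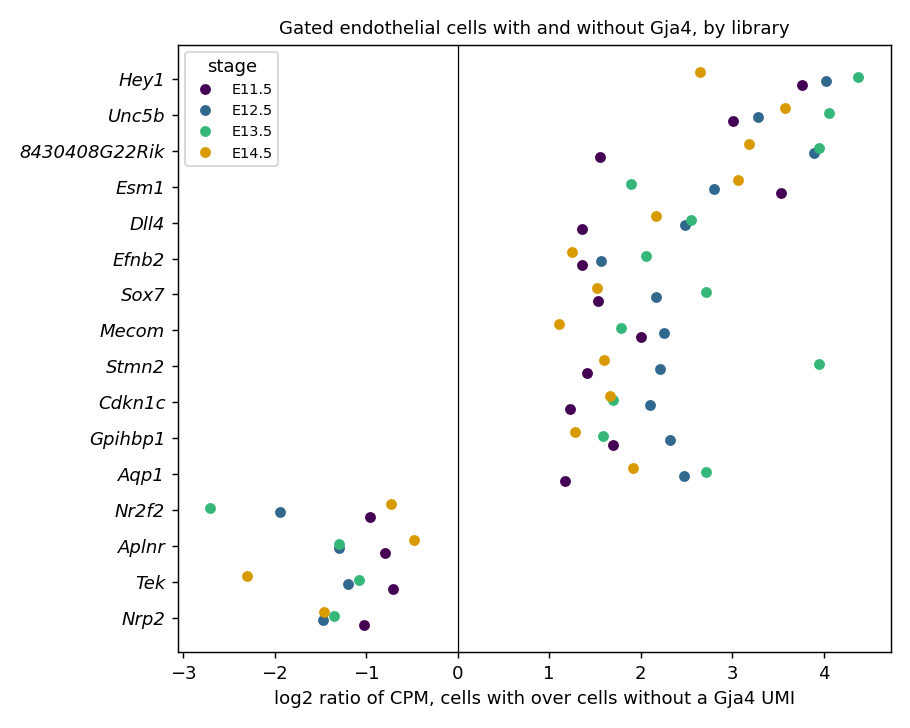
Log2 ratio of CPM between endothelial cells with and without a Gja4 UMI for 16 genes, with 1 point per library (E11.5 to E14.5). Hey1, Unc5b and the other arterial genes lie above 0 and Nr2f2, Aplnr, Tek and Nrp2 below 0 in all 4 libraries. The E14.5 points rest on 7 cells with Gja4, some with few UMIs (Hey1 6 against 4, Esm1 4 against 2).

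Another group of cells was present mainly at the earliest stage. Etv2, the ETS factor that starts endothelial fate in the embryo, measured 121, 23.8, 0.804 and 0 CPM in endothelial cells, and 5.21, 0.614, 0.340 and 0.0471 in the other somatic cells. At E11.5 it was found in 27 of 159 cells, 22 of which held at least 2 UMIs. A single cell held 105 of the 350 UMIs (30.0%). At E12.5, 71 of 76 UMIs (93.4%) were in 1 cell, so the E12.5 level is that of 1 cell.

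The 22 E11.5 cells with at least 2 Etv2 UMIs differed in many genes from the other 137. Their selection used Etv2 values and is a description. They were deeper, at a median of 22096.5 against 15602 UMIs. Of 3149 genes, 177 were at least 2-fold higher in them and 275 at least 2-fold lower. Tal1, a regulator of blood and endothelial fate, was at 117 against 26.8 CPM, Hhex, a homeobox factor of early endothelium, at 375 against 108, and Bmp2 at 124 against 18.8. Tgfbi was at 214 against 36.4 CPM and Gpr182, a receptor of endothelium, at 118 against 24.7. The markers were spread over the group, Hhex being found in 20 of 22 cells, Tgfbi in 20 and Bmp2 in 17.

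Genes of established vessels were lower in these cells. Plvap was at 1.94 against 807 CPM and was found in 1 of 22 cells, against 126 of 137 in the rest. The adhesion gene Pecam1, itself in the gate, was at 27.2 against 381 CPM and Cdh5 at 101 against 406. Clec14a was at 3.88 against 115 CPM and Gja4 at 3.88 against 98.0. Other endothelial genes were not: Cldn5 (1099 against 729) and Fli1 (179 against 141) were higher, and Egfl7 (717 against 763) was near equal. The 22 cells held 6 gate genes in 7 cells, 5 in 6 and 4 in 9, so most of them lacked at least 1 gate gene. Etv2 had 0 UMIs in the cells with Gja4 described above, so all 22 lay among the cells without Gja4. Their part in the Gja4 ratios, that of Plvap among them, was not tested.

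Markers of other lineages were read in the same cells. The germ cell list was at 0 CPM, the immune list at 1.94 against 34.7, and 0 of the 22 were called doublets. The megakaryocyte list stood at 146 against 23.9 CPM, with Pf4 at 111 against 11.7, and the interstitial list at 291 against 91.7. Much of the interstitial sum was Ptn, at 151 against 12.1 CPM, which was found in only 4 of the 22 cells. The part of these in the difference was not tested. Outside the gate, 39 cells also held at least 2 Etv2 UMIs, 26 of them at E11.5.

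Cells without a Plvap UMI were found at every stage. Among cells with fewer than 2 Etv2 UMIs, 11, 40, 9 and 8 had no Plvap UMI. At E11.5 the 11 cells had Tgfbi at 194 CPM, against 19.5 in cells with Plvap. At E12.5 the 40 cells had Tgfbi at 232 CPM, against 49.7 in cells with Plvap, Hhex at 181 against 96.1 and Colec12, a scavenger receptor, at 88.2 against 15.2. At E13.5 the 9 cells had Tgfbi at 44.5 against 65.8 CPM, and at E14.5 the 8 cells had 213 against 80.4, so E13.5 was the stage at which Tgfbi was not higher without Plvap.

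**Figure D4:**
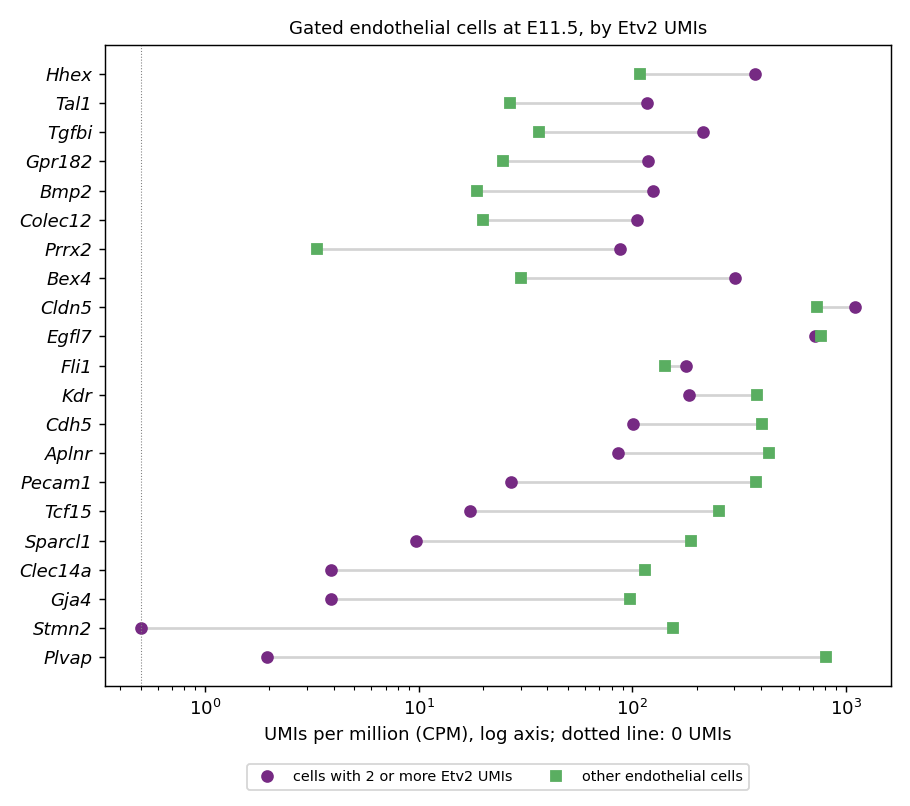
CPM on a log axis at E11.5 for the 22 endothelial cells with at least 2 Etv2 UMIs (circles) and the other 137 (squares), with genes at 0 UMIs on the dotted line. Tal1, Hhex, Bmp2 and Tgfbi are higher in the 22 cells, and Plvap, Pecam1 and Gja4 are higher in the 137. Cldn5 and Fli1 are higher in the 22 cells to a lesser degree, and Egfl7 lies close together.

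Across the stages few genes passed the rule for a change. Between libraries a gene was called when it had at least 50 UMIs, 50 CPM in the higher library, a ratio of at least 2 and an interval that left out 1. Between E11.5 and E14.5, 132 of 3143 genes were higher at E14.5 (4.20%) and 102 lower (3.25%). Changes beyond those of the other somatic cells by at least 1 on the log2 scale were 43 (1.37%) and 45 (1.43%). Of the 23 further endothelial genes, 1, Tm4sf1, was higher and 0 were lower, with a median log2 ratio of 0.16 against -0.08 for all genes. In the other somatic cells the median of the same genes was 0.93. Neighbouring stages gave 40 higher (1.31%) and 33 lower (1.08%) at E12.5 against E11.5, 16 (0.533%) and 17 (0.566%) at E13.5 against E12.5, and 48 (1.56%) and 38 (1.23%) at E14.5 against E13.5. On a median-of-ratios scale the split at E12.5 against E11.5 was 66 higher and 25 lower. Beyond the other somatic cells the same comparisons gave 9 (0.296%) and 13 (0.427%), 5 (0.167%) and 4 (0.133%), and 14 (0.454%) and 19 (0.616%). Without the cells with at least 2 Etv2 UMIs, chosen after seeing the data, the 33 became 19.

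Single genes of membrane and transport were higher at the later stages. Of 7 genes of caveolae compared between E11.5 and E14.5, 1 rose and 0 fell. That gene, Sdpr, which encodes the caveolar protein cavin 2, measured 11, 45.5, 129 and 179 CPM (log2 ratio 4.02 [3.44 to 4.64], 0.76 in other somatic cells). Slco2a1, a prostaglandin transporter, measured 8.61, 26.4, 41.8 and 108 CPM (3.65 [2.96 to 4.38]). Both were higher at each later stage. Gpihbp1 rose from 54.8 and 89.4 to 229 and 234 CPM (2.09 [1.75 to 2.43]), and Aqp1 from 7.23 and 25.4 to 68.3 and 68.8 (3.25 [2.45 to 4.09]). Gpihbp1 and Aqp1 also had log2 ratios of 2.77 and 2.99 in the other somatic cells, at 1.60 CPM and 1.74 CPM at E14.5.

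Of 12 basement membrane genes compared, 1, Sparcl1, rose and 0 fell, and of 3 Notch genes 0 were called. Igfbp7, a secreted matrix protein of vessels, measured 21.7, 51.5, 237 and 169 CPM, highest at E13.5 (log2 ratio 2.96 [2.49 to 3.44], 0.53 in the others). Sparcl1 measured 156, 286, 365 and 543 CPM (1.80 [1.59 to 2.01], and 1.53 without the Etv2 cells). The semaphorin co-receptor Nrp2 was the 1 of 4 VEGF receptor genes that rose (60.3, 116, 80.4 and 129 CPM). Nrp2 and Sparcl1 were also higher at E14.5 than at E11.5 in the other somatic cells, read without those holding 3 or more endothelial genes. There Nrp2 measured 1.94, 2.71, 4.44 and 4.52 CPM and Sparcl1 50.4, 48.6, 60.9 and 100 CPM. Mecom (log2 ratio 1.02) and Sema6d (1.12) passed at the threshold and did not without the Etv2 cells (0.74 and 0.96). Interferon-related genes Ifi27, Rtp4 and Ly6e were among the 10 largest rises beyond the other somatic cells, with log2 ratios of 3.01, 3.45 and 2.38.

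Among tip cell genes, 3 of 6 compared fell and 1 rose, while the sum of the list was 548, 597, 760 and 619 CPM (log2 ratio 0.18 [0.01 to 0.34]). Kcne3, a potassium channel subunit, measured 79.6, 35.5, 29.7 and 6.88 CPM (log2 ratio -3.53 [-5.42 to -2.16]). The E14.5 value rests on 4 UMIs in 2 cells. Esm1 measured 55.8, 38.3, 48.2 and 10.3 CPM (-2.44 [-3.90 to -1.28]), and its low value at E14.5 rests on 6 UMIs. Ramp3, part of the adrenomedullin receptor, measured 72.0, 53.7, 48.2 and 32.7 CPM (-1.14), while Trp53i11 rose (1.33). Stmn2 fell (-1.97).

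Fatty acid binding proteins fell while Gpihbp1 and Aqp1 of the same list rose. Fabp4 measured 66.1, 71.2, 71.5 and 17.2 CPM (log2 ratio -1.94 [-3.03 to -1.03]). It was level over 3 stages and low at E14.5 alone. Fabp5 measured 313, 179, 188 and 101 CPM (-1.63 [-2.03 to -1.25]).

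Glycolysis genes were higher at E11.5 than later. The list of 17 summed to 5660, 3285, 2818 and 2717 CPM, a log2 ratio of -1.06 [-1.13 to -0.98], with -0.91 in the other somatic cells. Of 8 genes compared 4 fell, Slc2a1, Ldha, Gapdh and Eno1. The glucose transporter Slc2a1 measured 114, 62.8, 58.7 and 34.4 CPM (-1.73, and -0.78 in the others), whereas Gapdh moved alike in both classes (-1.17 and -1.20). Without the Etv2 cells Eno1 stood at -0.95 and did not pass. The 22 Etv2 cells had a list sum of 8071 CPM against 5140 in the other 137.

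Cell cycle lists had median log2 ratios of -0.43 between E14.5 and E11.5, against -0.08 over all genes. In the other somatic cells the median was -0.33 for S phase genes and 0.15 for mitosis genes. Over all 3143 genes compared 3.25% were lower at E14.5. Of 15 S phase genes compared 2 fell, Rrm2 and Uhrf1, and of 13 mitosis genes 1 fell, Ube2c (405, 238, 229 and 181 CPM). Mki67, a proliferation marker, measured 51.3, 67.5, 51.4 and 70.5 CPM and did not pass.

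**Figure D5:**
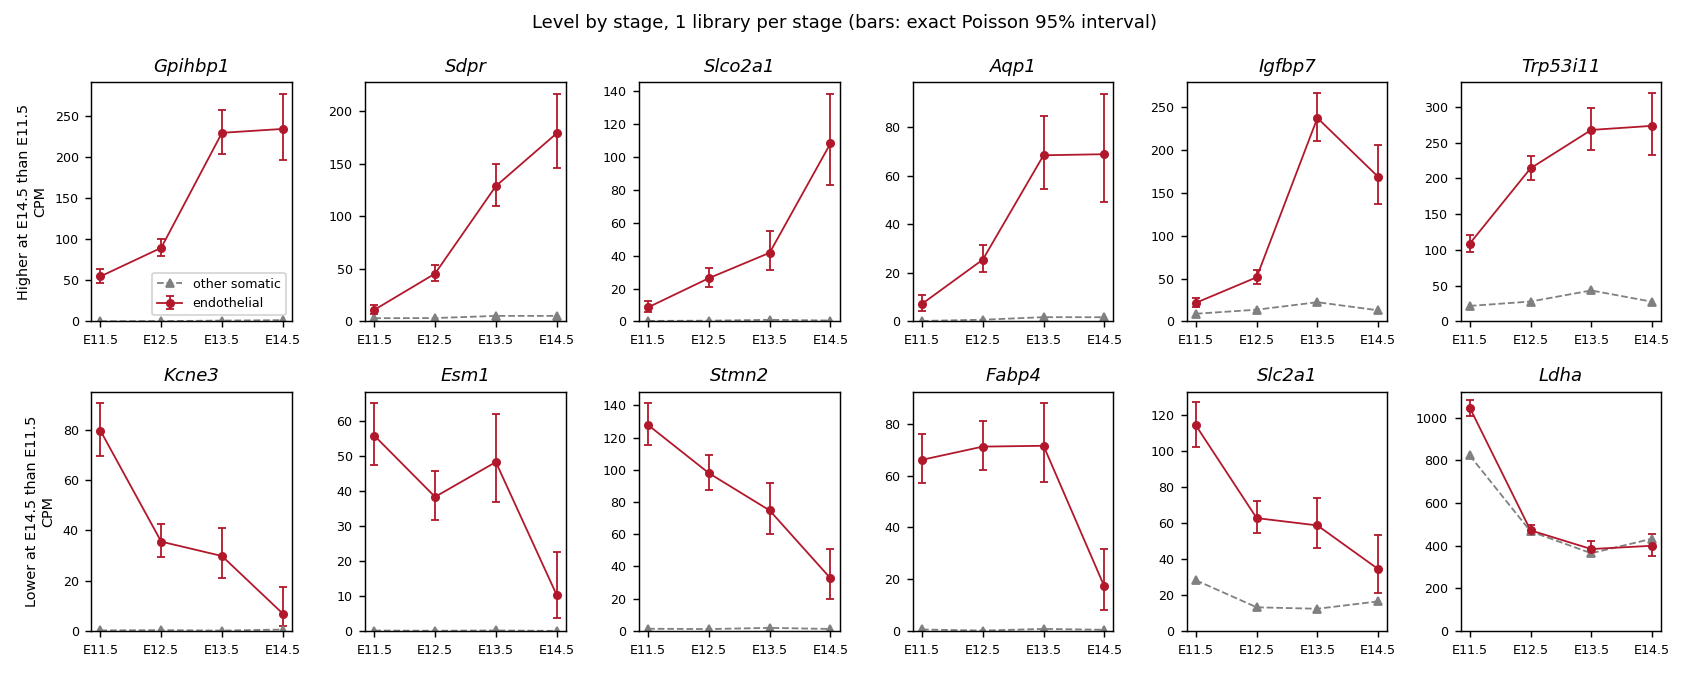
CPM by stage for 12 genes in endothelial cells, with exact 95% Poisson intervals that cover counting error only. Sdpr, Slco2a1, Gpihbp1 and Aqp1 are highest at E13.5 or E14.5, and Kcne3, Esm1 and Fabp4 are lowest at E14.5.

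Globin transcripts at E11.5 came mostly from 1 cell. Of 22427 globin UMIs in the 159 endothelial cells, 19443 (86.7%) were in a single cell with at least 3 erythroid genes. With it the globin level was 7723 CPM, and without it 1042 CPM, next to 590, 999 and 1143 CPM at the later stages. The median endothelial cell held 17, 9, 9 and 13 globin UMIs and the median other somatic cell 16, 8, 10 and 13. With that cell Hba-a1 had a log2 ratio of -2.62 between E14.5 and E11.5, and without it 1.05.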

How the data were processed

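The members and gene lists were chosen with earlier results of these data known. Reads were processed with Cell Ranger 2.2.0 on mm10, per the submitters' processing notes. The deposited table holds values that the authors put on a natural log scale: the log of 1 plus the UMIs of a gene, scaled to a fixed total per cell. This was read from the values. The plan had assumed counts. All 69792436 values above 0 were whole multiples of 1 UMI at a relative tolerance of 1e-06, and UMI counts were recovered for all 19387 cells. The number of columns left without a sample was 0.

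UMIs were summed per library and class, and genes compared by a rule of size, with a floor of 3 UMIs over a class for ratios against 0. A class ratio is the geometric mean over the 4 libraries. Erythroid-gate cells held at least 3 of 6 erythroid genes. Poisson, binomial and Clopper-Pearson intervals were exact at 95%. Shares of cells used cells thinned to 5000 UMIs. Doublets were scored per library with the scanpy Scrublet function (expected rate 0.06) and kept. Named genes were the listed genes, the 20 with the largest class ratio and, per direction, the 10 with the largest E14.5 against E11.5 change beyond the other somatic cells. Those in the Gja4 and Etv2 splits were chosen after values were seen. Bmp6, Gdf2, Slco1c1 and Sele were not analysed here.

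The rules were tested on simulated data with 19321 genes, 200 of them changed. Counts were drawn with Poisson counting error only, without added spread between embryos, libraries or cells. The few false calls follow from that setting and give no error rate for the calls in the real data. The class rule found 100% of 8-fold and 0% of 2-fold changes and called 0 unchanged genes. The E14.5 against E11.5 rule found 100% of 4-fold and 48% of 2-fold changes and called 1 unchanged gene in each run. Python 3.11.15, numpy 2.4.6, scipy 1.17.1, pandas 2.3.3, scanpy 1.11.5 and matplotlib 3.10.9 were used. Alternatives covered the gate, doublets, scale, CPM minimum, averaging over cells, comparison cells and leaving out each library.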

Additional observations from a re-analysis of the deposited data

Results flagged for a closer look

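Kcne3, a potassium channel subunit listed with tip cell genes, had a log2 ratio of -3.53 between E14.5 and E11.5 in endothelial cells and 1.59 in the other somatic cells, where it stayed between 0.113 and 0.519 CPM. The difference between the classes was not tested.

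Of the adult globin genes, 3 also had ratios of opposite sign in the 2 classes. Hba-a1 had -2.62 in endothelial cells and 3.17 in other somatic cells, Hba-a2 -2.13 and 3.61, and Hbb-bt -1.62 and 3.65, whereas Hbb-bs had 3.90 and 6.75. These differences were not tested, and the endothelial values turned positive without the 1 globin-rich cell at E11.5.

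In data outside the gate, 40 cells held at least 4 endothelial genes together with at least 2 germ cell genes (7, 7, 15 and 11 by stage) and were left out of every comparison.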

How the results depend on the processing

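With 1 library per stage, there is no estimate of the spread between libraries of a stage. The E14.5 values rest on 41 endothelial cells, and genes under 50 CPM were not called. No paired analysis was possible because each stage has 1 library.

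The share of cells moved to 4.05% at E11.5 with at least 3 endothelial genes, to 2.36%, 2.85% and 1.53% at E11.5, E12.5 and E13.5 with no germ cell gene allowed, and to 2.46% and 1.21% at E13.5 and E14.5 with no limit on Fst, Irx3 and Upk3b. Without the CPM minimum, 488 genes were higher and 291 lower in endothelial cells. The stage counts then became 229 higher and 136 lower at E12.5 against E11.5, 62 and 104 at E13.5 against E12.5, 71 lower at E14.5 against E13.5, and 285 and 250 at E14.5 against E11.5. More genes are compared by construction. A median-of-ratios scale gave 66 higher at E12.5 against E11.5, where it shifts log2 ratios by -0.10. Averaging over cells gave 61 lower at E14.5 against E13.5, and the cause was not tested. Counting only changes beyond the other somatic cells left 9 and 13, 5 and 4, 14 and 19, and 43 and 45, in the same order of comparisons. Without the cells with at least 2 Etv2 UMIs, 19 were lower at E12.5 against E11.5. Without thinning, 72.8% of endothelial cells held 3 or more arterial genes (33.1% thinned) and 2.95% held none (17.7%).

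Leaving out 1 library at a time gave 173 to 208 higher and 95 to 130 lower genes in endothelial cells. The E14.5 against E11.5 log2 ratios that reversed were those of Hba-a1 (1.11 without called doublets, 1.12 also without members with 2 or more immune or erythroid genes, and 1.05 without the globin-rich cell), Hba-a2 (1.25, 1.14 and 1.30) and Hbb-bt (1.25, 1.21 and 1.25). The last 2 of these alternatives were chosen after seeing the data, as were those on Etv2 and on the comparison cells.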

Other observations

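Arterial genes were also counted per cell, after thinning to 5000 UMIs. Of the 475 endothelial cells, 84 held none of the listed arterial genes, 108 held 1, 126 held 2 and 157 held 3 or more. By stage, 27.7%, 35.6%, 38.9% and 29.3% of endothelial cells held 3 or more. Over all stages, the summed venous genes stood at 1477 CPM in cells with none, 1658 with 1, 1831 with 2 and 1883 with 3 or more. With cells grouped after thinning, this rise was seen at E11.5 and E12.5 but not at the later stages. In the same order, E13.5 gave 1206, 1765, 1990 and 1895 CPM and E14.5 gave 1667, 1330, 1954 and 1321. Over all stages Plvap (358 CPM with none, 734 with 3 or more) and Emcn (469 and 591) carried the sum upward. Nr2f2 (117 and 73.4), Nrp2 (102 and 65.0) and Aplnr (335 and 299) stood lower in the cells with 3 or more. Aplnr was highest in cells with 2 (428). At E14.5 Plvap did not rise (336 CPM with none, 302 with 3 or more), and at E11.5 Aplnr was not lower (323 and 337). Grouped without thinning, the venous sums did not rise steadily at E11.5 or E12.5. From none to 3 or more they stood at 1255, 1905, 1337 and 2009 CPM at E11.5. At E12.5 they stood at 1393, 1449, 1433 and 1684 CPM.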
